A study of Mus musculus with 9 samples.

Results

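The cytotoxic effector genes Gzma, Gzmb, Gzmk, Gzmm, Prf1, Nkg7, Ctsw, Eomes, Ccl5 and Cst7, were followed in CD4+ T cells from mice with experimental autoimmune encephalomyelitis (EAE), a mouse model of multiple sclerosis in which T cells attack myelin. These 10 genes were picked by symbol from a table of 39253 genes, and all 10 were present once and passed the low-count filter in every comparison. RNA sequencing covered 9 libraries that the labels place at day 9, without saying from when the days were counted. Of these, 5 libraries, 3 in batch 1 and 2 in batch 2, carried the label ERα KO (knockout of estrogen receptor alpha, KO), and the other 4 libraries, 2 in each batch, were wildtype (WT). EAE was common to both genotypes. The series title concerns ERα in dendritic cells, while the labels used here do not give the cells in which the knockout acts, the way it was made, the strain, age or sex of the mice, or the organ the T cells came from. They also do not say whether libraries came from separate animals, so p-values measure the spread between these libraries, which may be technical.

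Cytotoxic lymphocytes kill by releasing granules at the contact with a target cell. Perforin opens the target membrane, and granzymes, a family of serine proteases, pass through and cleave proteins inside. CD8 T cells and natural killer (NK) cells are the usual owners of this program, but CD4 T cells can acquire it after repeated stimulation, under the T-box transcription factors Eomes and T-bet. Such CD4 cytotoxic cells have been described in multiple sclerosis and in EAE.

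The batches differed in library size, in sex-linked transcripts and in markers of other cells. In batch 2 the totals ran between 54625373 and 62863222 estimated counts in KO and between 45013017 and 69844721 in WT libraries, and in batch 1 between 5069169 and 8713129 in KO and between 4926347 and 11296593 in WT libraries. Levels are given as CPM, estimated counts scaled to the same library total, and 3 counts, taken as the detection floor, equal 0.0430 to 0.0666 CPM in batch 2 and 0.266 to 0.609 CPM in batch 1. Olfactory, vomeronasal and taste receptor genes, which T cells do not normally use, averaged 4.30 to 8.58 counts each in batch 1 libraries, with a 95th percentile of 11 to 21 counts, against 0.940 to 1.27 counts and a 95th percentile of 0 in batch 2. Esr1, the targeted gene, was at 0.143 and 0.256 CPM in KO and at 1.45 and 1.69 CPM in WT libraries of batch 2. In batch 1 Esr1 was at 9.58, 6.31 and 13.0 CPM in KO and 4.87 and 16.2 CPM in WT libraries, so there it does not check the labels. A pair of libraries stood apart. KO replicate 3 had 30.4 CPM of Xist and 55.4 CPM of the Y-linked Ddx3y, unlike the other batch 1 libraries, with 1745 to 2680 CPM of Xist and 0 of Ddx3y. All 4 batch 2 libraries had Xist at 0 to 0.289 CPM and Ddx3y at 93.6 to 107 CPM. Apart from KO replicate 3, a single library, batch, depth and these sex-linked levels thus went together. They cannot be told apart in any difference between the batches. Within batch 1 the only library with Ddx3y was a KO library, so these levels were not balanced between the genotypes there. WT replicate 3 had a summed level of 1820 CPM over 6 erythroid markers, against 96.9 to 141 CPM in the other batch 2 libraries. T cell transcripts were abundant in every library. The 8 markers of the CD4 T cell list summed to 3187 to 4664 CPM in KO and 3657 to 4436 CPM in WT libraries. Most of them, such as Cd3e, are shared with other T cells. Cd4 itself was at 925 to 1321 CPM in KO and 1111 to 1308 CPM in WT libraries. Markers of other cells are given below.

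Gzma had the log2 fold change farthest from 0 of the 10 members in batch 2 and over both batches, while in batch 1 those of Gzmk and Ccl5 were farther from 0. In batch 2 granzyme A, a tryptase-like granzyme, was at 1.37 and 1.23 CPM in KO libraries and at 6.53 and 6.93 CPM in WT libraries. The groups lay far apart relative to their spread, with 1.30 ± 0.10 CPM in KO and 6.73 ± 0.28 CPM in WT (SD, n = 2 each). Summed over libraries this rested on 153 counts in KO and 768 in WT, 5.13-fold lower in KO with a 95% exact (Clopper-Pearson) counting interval of 4.31 to 6.15, which covers counting error only. The log2 fold change was -2.37 ± 0.32 (SE). It ranked 11 of 15910 genes by p in the edgeR quasi-likelihood test within batch 2 but did not pass adjustment over all genes (unadjusted p = 0.000496, adjusted p = 0.618). With DESeq2 Gzma passed in the same libraries (adjusted p = 6.25e-07), where it called 2.07% of all genes, and in edgeR it passed without WT replicate 3 (adjusted p = 0.0383, 1.62% of all genes called) and without WT replicate 4 (adjusted p = 0.0149, 5.21% called), fits where the lone WT library is assumed to vary like the KO.

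In batch 1 Gzma was at 2.93, 5.39 and 3.16 CPM in KO libraries and at 8.14 and 5.28 CPM in WT libraries. KO replicate 2 lay just above WT replicate 2, so the groups overlapped, and the means were 3.83 ± 1.36 CPM in KO (SD, n = 3) and 6.71 ± 2.03 CPM in WT (SD, n = 2). The log2 fold change was -0.97 ± 0.57, with a 95% interval of -2.10 to 0.17 (edgeR adjusted p = 1.00). It was -0.40 ± 0.69 without WT replicate 1 and -1.38 ± 0.56 without WT replicate 2. KO replicate 3 held 16 counts of Gzma, under the 95th percentile of 21 counts of the receptor genes in that library. Over both batches Gzma had a log2 fold change of -1.58 ± 0.44 and ranked 31 of 22197 genes, again without passing adjustment (edgeR unadjusted p = 0.00398, adjusted p = 1.00). The value was negative in the fit of each batch and in every run that left out a single library, where the pooled value lay between -2.002 and -1.356. A difference between the batches was not shown (interaction log2 fold change -1.53 ± 0.73, edgeR adjusted p = 0.592).

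The other granzymes among the members had log2 fold changes nearer 0 than Gzma in batch 2 and above 0 in batch 1, and no test set one gene against another. Granzyme B, which cleaves caspases after aspartate, was at 14.5 and 25.9 CPM in KO and at 22.6 and 37.3 CPM in WT libraries of batch 2. The ranges overlapped, and the log2 fold change was -0.55 ± 0.36, with an interval of -1.48 to 0.37 (edgeR adjusted p = 0.750). In batch 1 Gzmb was at 7.32, 15.7 and 13.4 CPM in KO and at 10.003 and 5.68 CPM in WT libraries, with a log2 fold change of 0.41 ± 0.46. Granzyme K, a tryptase-like protease encoded next to Gzma, was at 0.668 and 3.19 CPM in KO and at 1.40 and 2.95 CPM in WT libraries of batch 2. Its KO libraries thus bracketed the WT libraries. In batch 1 Gzmk was at 1.86, 5.16 and 2.76 CPM in KO and at 0.885 and 0.406 CPM in WT libraries. All 3 KO libraries were higher, but they rested on 14, 45 and 14 counts against 10 and 2 in WT, and only KO replicate 2 exceeded the receptor gene 95th percentile. The log2 fold change of Gzmk in batch 1 was 2.06 ± 0.84 (edgeR unadjusted p = 0.0173, adjusted p = 1.00), and 1.47 ± 1.25 without KO replicate 2. Granzyme M, which cleaves after methionine and leucine, was at 2.40 and 2.34 CPM in KO and at 2.65 and 3.69 CPM in WT libraries of batch 2. In batch 1 Gzmm was at 2.26, 2.07 and 3.55 CPM in KO and at 1.95 and 1.62 CPM in WT libraries. The Gzmm groups did not overlap in either batch, KO being lower in batch 2 and higher in batch 1, yet the differences were small, with log2 fold changes of -0.41 ± 0.37 and 0.33 ± 0.75. Of all tested genes, 20.5% had every KO library lower in batch 2 and 10.9% had every KO library higher in batch 1. Gzmm exceeded the receptor gene 95th percentile in 3 of the 5 batch 1 libraries.

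A ratio of counts within a library does not depend on scaling between libraries. The ratio of Gzma to Gzmb counts, a comparison chosen after the values were seen, was 0.0945 and 0.0473 in KO and 0.288 and 0.186 in WT libraries of batch 2. In batch 1 it was 0.400, 0.343 and 0.235 in KO and 0.814 and 0.929 in WT libraries. KO libraries thus had the lower ratio in both batches, with no overlap in either. In batch 1 the Gzma CPM overlapped between the groups and Gzmb had a log2 fold change of 0.41 ± 0.46, so the ratio there reflects both genes. The share of gene pairs with such a separation was not counted. The ratio of Gzma to Prf1 counts was 0.0367 and 0.0438 in KO and 0.198 and 0.333 in WT libraries of batch 2, and it overlapped in batch 1, at 0.109, 0.281 and 0.136 in KO and 0.395 and 0.215 in WT libraries. The ratio of Gzma to Gzmk counts was 2.05 and 0.385 in KO and 4.65 and 2.35 in WT libraries of batch 2, and 1.57, 1.04 and 1.14 in KO and 9.20 and 13.0 in WT libraries of batch 1, where Gzmk in WT rests on 10 and 2 counts.

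The upstream sequences of the 3 granzyme genes are shown because Gzma and Gzmk are neighbours on chromosome 13 and Gzmb lies in another granzyme cluster on chromosome 14, and the values of the 3 genes are set side by side above. Each is the 250 bases before the annotated start, written in the direction of the gene, from RefSeq on build GRCm38.p6, while the submitters' processing notes name GRCm39 for the counts. Capitals mark the T-box core AGGTGT and the RUNX motif TGTGGT on either strand. The windows are chr13:113100982-113101231 (minus strand) for Gzma, chr13:113180966-113181215 (minus strand) for Gzmk and chr14:56262335-56262584 (minus strand) for Gzmb.
Gzma: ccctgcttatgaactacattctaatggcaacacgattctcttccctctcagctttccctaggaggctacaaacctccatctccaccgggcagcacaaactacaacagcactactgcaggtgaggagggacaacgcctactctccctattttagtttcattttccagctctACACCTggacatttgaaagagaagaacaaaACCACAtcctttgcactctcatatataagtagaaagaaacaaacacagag
Gzmk: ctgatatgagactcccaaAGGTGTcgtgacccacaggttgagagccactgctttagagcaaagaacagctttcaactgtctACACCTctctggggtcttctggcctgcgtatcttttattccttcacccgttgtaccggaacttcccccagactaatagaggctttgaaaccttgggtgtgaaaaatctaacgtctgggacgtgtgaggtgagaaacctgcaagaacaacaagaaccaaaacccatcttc
Gzmb: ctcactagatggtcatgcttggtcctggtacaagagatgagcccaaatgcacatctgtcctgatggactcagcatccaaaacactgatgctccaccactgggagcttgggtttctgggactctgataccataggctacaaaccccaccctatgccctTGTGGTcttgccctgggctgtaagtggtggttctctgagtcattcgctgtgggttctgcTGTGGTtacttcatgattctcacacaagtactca
The Gzma window holds 1 T-box core 80 bases before the start and 1 RUNX motif. The Gzmk window holds 2 T-box cores and no RUNX motif, and the Gzmb window no T-box core, 2 RUNX motifs and 1 AP-1 motif (TGANTCA). Of 32851 windows of this length, 11.8% hold the T-box core, 14.0% the RUNX motif and 6.75% the AP-1 motif. Of the 10 members, 8 had a window, and Gzmm had 2 starts. Prf1 and Nkg7 also held 1 T-box core each, and Gzmm, Eomes and Cst7 none. The full estrogen response element (GGTCA and TGACC with 3 bases between) was in the window of none of the 8 genes and in 0.0639% of all windows, and its core AGGTCA was in 1 of the Gzmm windows and in 14.0% of all. These matches describe letters and not binding.

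**Figure D1:**
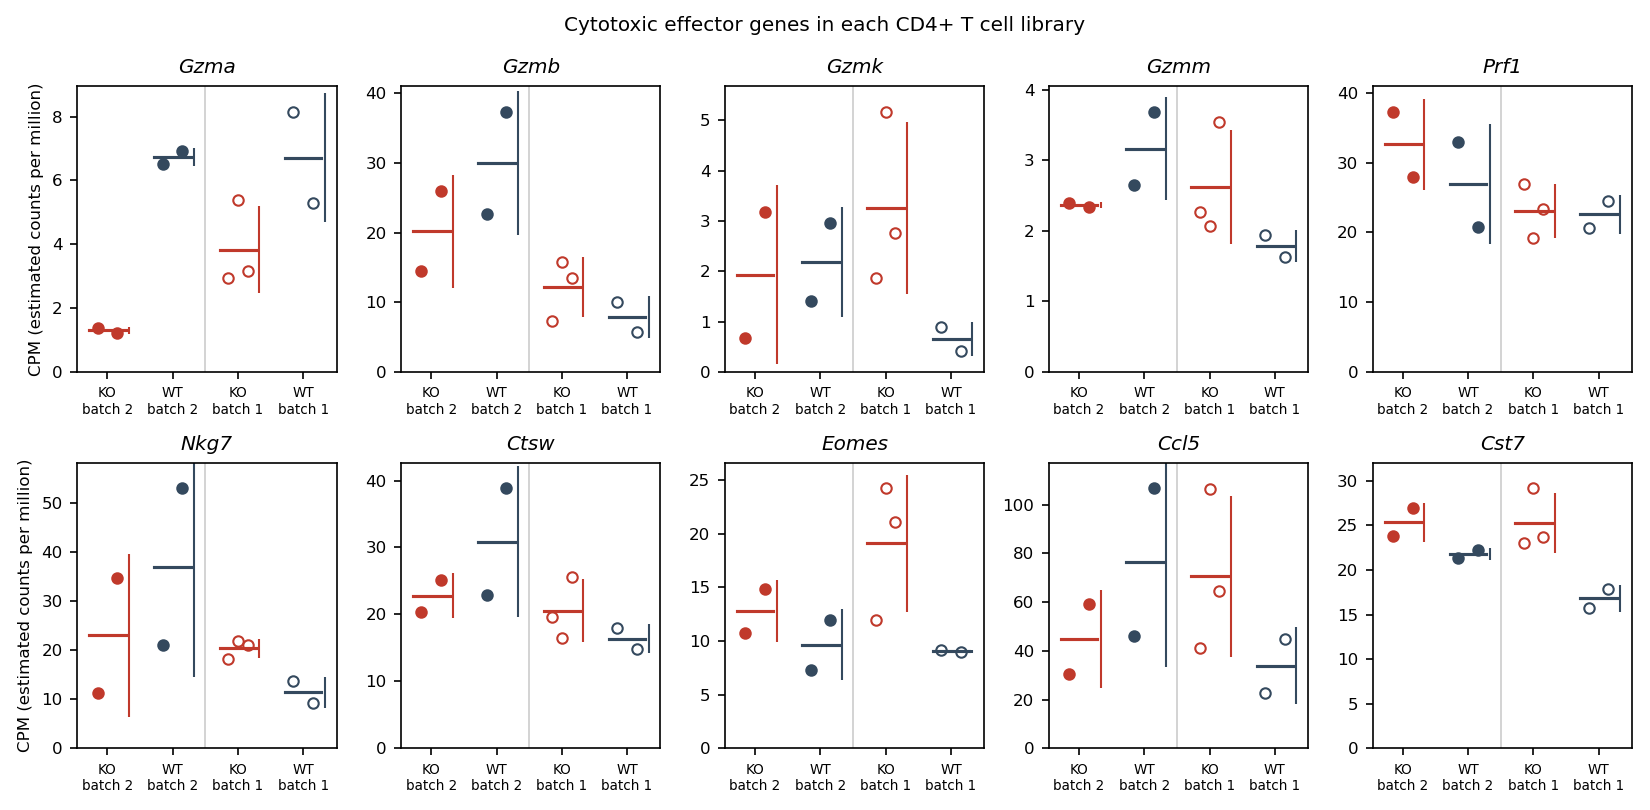
CPM of each cytotoxic gene in the 9 libraries, one panel per gene with its own axis starting at 0. Filled points are batch 2 and open points batch 1, KO is red and left of WT in blue, horizontal bars are means and vertical lines the mean ± SD (n = 2, and n = 3 for KO in batch 1). Gzma in batch 2 sits at 1.23 to 1.37 CPM in KO and 6.53 to 6.93 CPM in WT libraries, while Gzmb, Nkg7 and Ccl5 overlap there.

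Perforin, the pore-forming partner of the granzymes, gave no sign of a genotype difference beyond its spread. Prf1 was at 37.3 and 27.99 CPM in KO and at 33.02 and 20.8 CPM in WT libraries of batch 2, and at 26.9, 19.2 and 23.3 CPM in KO and 20.6 and 24.6 CPM in WT libraries of batch 1. Both pairs of groups overlapped. Over both batches the log2 fold change was 0.12 ± 0.18, with an interval of -0.28 to 0.53 (edgeR adjusted p = 1.00). This interval lies above the pooled Gzma value of -1.58, but the 2 genes were not tested against each other.

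Nkg7, a granule membrane protein needed for efficient degranulation, was at 11.3 and 34.8 CPM in KO and at 21.1 and 52.9 CPM in WT libraries of batch 2. The libraries of a genotype differed more than the genotypes did. In batch 1 Nkg7 was at 18.1, 21.8 and 21.1 CPM in KO and at 13.6 and 9.13 CPM in WT libraries, all KO libraries being higher, and the log2 fold change being 0.64 ± 0.39 (edgeR adjusted p = 1.00). Ctsw, a cysteine protease of cytotoxic lymphocytes, overlapped in both batches. It was at 20.4 and 25.2 CPM in KO and 22.9 and 38.8 CPM in WT libraries of batch 2, and at 19.7, 16.4 and 25.6 CPM in KO and 17.97 and 14.8 CPM in WT libraries of batch 1. Its pooled log2 fold change was -0.07 ± 0.21.

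Cst7 and Eomes had the highest KO values relative to WT after Gzmk over both batches, without passing the test. Cst7 encodes cystatin F, an inhibitor that restrains the cathepsins that activate granzymes. It was at 23.8 and 26.9 CPM in KO and at 21.4 and 22.2 CPM in WT libraries of batch 2, and at 23.0, 29.2 and 23.7 CPM in KO and 15.8 and 17.9 CPM in WT libraries of batch 1. Every KO library was above every WT library of its batch, which held for no other member. Of all tested genes, 19.6% were so arranged in batch 2 and 10.9% in batch 1, and the share in both batches together was not counted. The pooled log2 fold change was 0.39 ± 0.14 (edgeR unadjusted p = 0.0198, adjusted p = 1.00). Eomes, the T-box factor named above, was at 10.8 and 14.8 CPM in KO and at 7.30 and 11.97 CPM in WT libraries of batch 2. In the batch 1 libraries Eomes stood at 11.97, 24.2 and 21.1 CPM in KO and at 9.12 and 8.93 CPM in WT libraries, so the groups overlapped in batch 2 only. The pooled log2 fold change was 0.74 ± 0.26, with an interval of 0.16 to 1.31 (edgeR unadjusted p = 0.0169, adjusted p = 1.00). When single libraries were left out it lay between 0.52 and 0.93.

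Ccl5, a chemokine stored and released by effector and memory T cells, was at 30.6 and 59.1 CPM in KO and at 46.1 and 107 CPM in WT libraries of batch 2. In the batch 1 libraries Ccl5 stood at 41.1, 106 and 64.5 CPM in KO and at 22.8 and 45.1 CPM in WT libraries. The groups overlapped in both batches. The log2 fold change was -0.75 ± 0.55 in batch 2 and 0.99 ± 0.40 in batch 1 (edgeR unadjusted p = 0.0159, adjusted p = 1.00), and the batch 1 value was 0.46 ± 0.45 without KO replicate 2, the library with the highest Ccl5 of its batch. The interaction log2 fold change, batch 2 minus batch 1, was -1.80 ± 0.81 (edgeR adjusted p = 0.591).

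**Figure D2:**
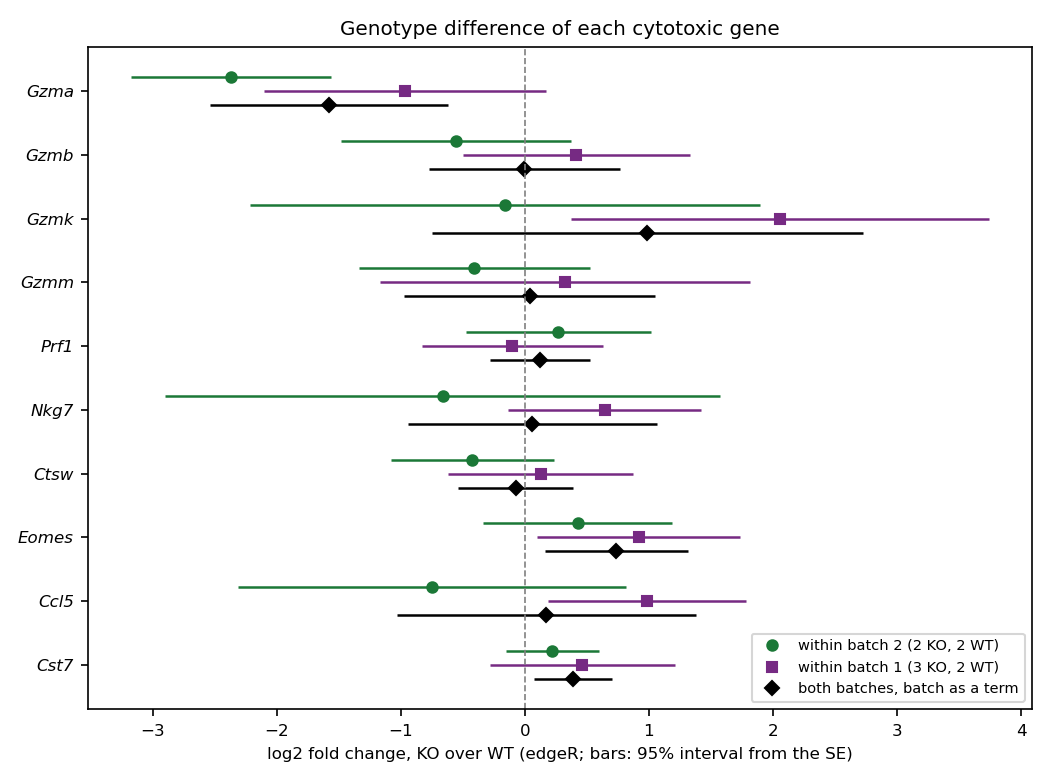
Log2 fold change of KO over WT for each gene from edgeR, with 95% intervals, within batch 2 (green circles), within batch 1 (purple squares) and over both batches with batch as a term (black diamonds). Gzma is at -2.37, -0.97 and -1.58 in the 3 fits, and the other 9 genes lie nearer 0 or have intervals that reach it in batch 2.

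Counted over the 10 genes, edgeR called 0 members in batch 2, where it called 0.0% of 15910 genes, 0 in batch 1, where it called 0.126% of 24600, and 0 over both batches, where it called 0.00451% of 22197. DESeq2 called 1 member in batch 2, Gzma, among 2.07% of all genes, 0 in batch 1 (0.13% of all genes) and 0 over both (0.0721%). Limma-voom called 0 members in each, with 0.0% of all genes in batch 2, 0.0488% in batch 1 and 0.00451% over both. At an unadjusted edgeR p under 0.05 there was 1 member in batch 2 against 7.77% of all genes, 3 in batch 1 against 1.97% (Gzmk, Eomes and Ccl5, all higher in KO) and 3 over both batches against 2.36% (Gzma lower in KO against 1.16% of all genes, Eomes and Cst7 higher against 1.19%). Without KO replicate 2 the count in batch 1 was 0, against 1.4% of all genes. The pooled count was 1 without WT replicate 1, 2 or 3, against 2.78%, 5.89% and 1.9% of all genes. The batch 2 count was 3 without WT replicate 3, against 14.7%, 2 without WT replicate 4, against 15.2%, and 2 without KO replicate 5, against 3.34%. In CPM, 2 members of batch 2 had all KO libraries below all WT libraries (Gzma and Gzmm) and 1 had them above (Cst7), where 20.5% and 19.6% of all tested genes did, 40.0% in either direction. In batch 1 there were 0 below and 5 above (Gzmk, Gzmm, Nkg7, Eomes and Cst7), where the shares of all genes were 5.19% and 10.9%, 16.0% in either direction. The median log2 fold change of the members was -0.41 in batch 2 with 7 of 10 negative, beside a median of -0.02 over all genes, and 0.44 in batch 1 with 2 of 10 negative, beside 0.04. With DESeq2 size factors the batch 1 medians were 0.30 for the members and -0.08 for all genes, and with upper-quartile scaling 0.54 and 0.11. The batch 1 medians were 0.14 for the members and 0.32 for all genes without WT replicate 2, and 0.67 and 0.01 without WT replicate 1. In batch 2 the median of the members was -0.81 without KO replicate 5, -0.66 without WT replicate 3, -0.12 without KO replicate 4 and -0.05 without WT replicate 4. For the interaction of batch and genotype, edgeR called 0 members, 0 had an unadjusted p under 0.05 against 8.36% of all genes (6.61% lower and 1.75% higher), and DESeq2 and limma-voom called 0, where they called 0.743% and 0.0% of all genes. In each of these, 2 members had an unadjusted p under 0.05, against 11.4% of all genes in DESeq2 and 5.97% in limma-voom. The interaction value was negative for 9 of the 10 members and for 61.9% of all genes.

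Within a genotype the members were not uniform either. In batch 2, 7 of the 10 (Gzmb, Gzmk, Nkg7, Ctsw, Eomes, Ccl5 and Cst7) were higher in KO replicate 5 than in KO replicate 4 and also higher in WT replicate 4 than in WT replicate 3. The share of all genes with this order was not counted, so it is not shown to be particular to the members. Nkg7 differed 3.08-fold between the KO libraries and 2.51-fold between the WT libraries, and Gzmk 4.77-fold and 2.11-fold. Prf1 went the opposite way in both genotypes, with ratios of 0.751 and 0.630. Gzma showed neither pattern, with ratios of 0.897 in KO and 1.06 in WT. Over the 9 libraries, log2 CPM centred within batch gave Pearson r of 0.86 between Gzmb and Nkg7, 0.88 between Eomes and Cst7 and -0.81 between Gzmb and Prf1. These coefficients describe 9 points that share libraries and depth, and Gzma, Gzmk and Gzmm were left out of them because they had under 20 counts in some library.

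Among 11408 genes with at least 20 counts in every library, those most like each member by the same measure were Tbx21 (r = 0.97) and Pglyrp1 (0.96) for Nkg7, Crmp1 (0.98) and Zyx (0.98) for Ctsw, and Tyro3 (0.97) and Wdr20 (0.95) for Eomes. For Gzmb they were Grk3 and Ralb (0.96 each), for Prf1 Zfp418 (0.95) and Dennd11 (0.93), for Ccl5 Zcchc4 (0.94) and Gpr55 (0.93), and for Cst7 Celsr1 (0.94) and Itgb8 (0.93). Tbx21 encodes T-bet, the other T-box factor of effector T cells. Tbx21 was at 18.5 and 38.6 CPM in KO and at 35.1 and 75.7 CPM in WT libraries of batch 2, the same order of libraries as Nkg7. As Tbx21 was picked for its likeness to Nkg7 in these libraries, a shared order follows largely from the choice. Gzmb, Ctsw and Ccl5 had this order in batch 2 too.

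**Figure D3:**
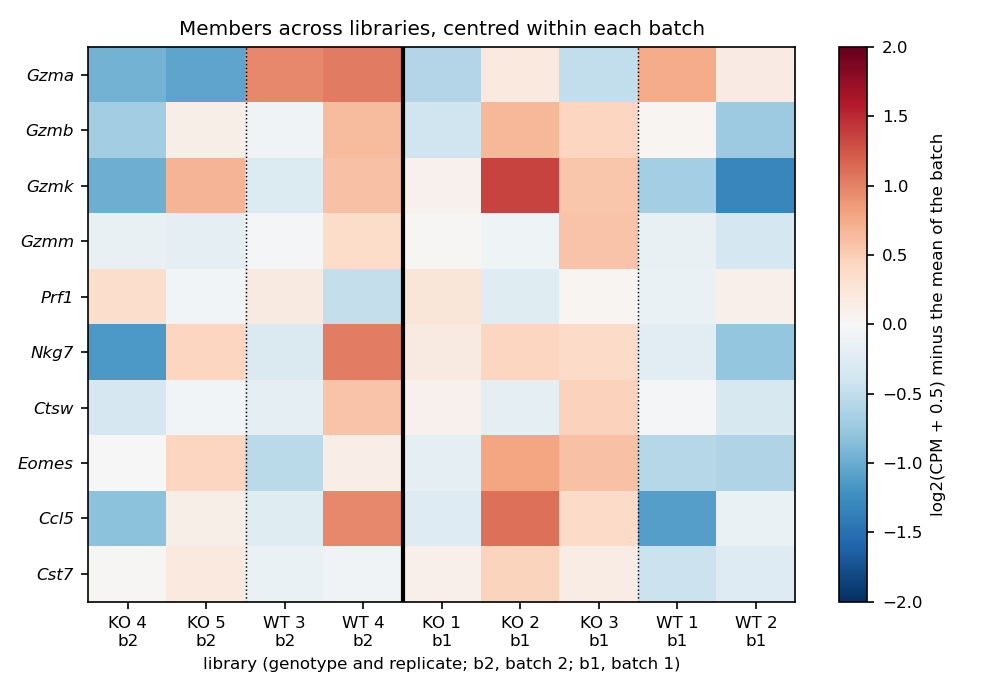
Heat map of log2(CPM + 0.5) of the 10 genes minus the mean of the batch, with the libraries of batch 2 left of the thick line, those of batch 1 right of it, and KO left of WT within a batch. Gzma is below the batch mean in both KO libraries of batch 2 and above it in both WT libraries, while Nkg7, Ccl5 and Gzmk are lowest in KO replicate 4 within that batch.

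Markers of other cytotoxic cells were examined beside these values. The 13 NK cell markers summed to 23.2 and 34.8 CPM in KO and 31.7 and 56.3 CPM in WT libraries of batch 2, and to 57.9, 56.5 and 84.2 CPM in KO and 52.1 and 41.4 CPM in WT libraries of batch 1. In batch 2, 7 and 1 of the 13 were at 0 in the KO libraries and 0 and 3 in the WT libraries. The largest term of the sum in each batch 2 library was Klrb1f, at 10.2 and 17.8 CPM in KO and 12.4 and 29.97 CPM in WT. Fcer1g was at 5.44 and 8.59 CPM in KO and 7.43 and 16.0 CPM in WT there, so the sum is not carried evenly by the 13 genes. Klra8 was at 0 and 0.201 CPM in KO and 0.573 and 0.666 CPM in WT libraries of batch 2. There Klri2 was at 0 and 0.330 CPM in KO and 0.730 and 0.955 CPM in WT. Klre1 was at 0.111 and 0.165 CPM in KO and 0.558 and 0.244 CPM in WT of that batch. Klra8, Klri2 and Klre1 were thus lower in both KO libraries, as Gzma and 20.5% of all tested genes were. The other NK markers overlapped in batch 2. Ncr1, an NK cell receptor gene of this list, had 0 and 16 counts in KO and 37 and 0 counts in WT libraries of batch 2. Ncr1 had 10, 14 and 13 counts in KO and 14 and 9 counts in WT libraries of batch 1. There only WT replicate 1 exceeded the 95th percentile of the olfactory, vomeronasal and taste receptor genes in its library, which was 11 counts. The 3 markers of gamma delta and natural killer T cells, Sox13, Zbtb16 and Blk, summed to 9.51 and 8.97 CPM in KO libraries of batch 2. Their sum in WT libraries of that batch was 11.5 and 11.6 CPM. In batch 1 this sum was 15.4, 16.4 and 24.7 CPM in KO and 10.1 and 14.6 CPM in WT libraries. Every KO library was thus lower in batch 2 and higher in batch 1. The part of these marker levels and of the NK marker level in the values of the members was not tested. Of the pair of CD8 genes, Cd8a had 0 and 0 counts in KO and 11 and 0 in WT libraries of batch 2, while Cd8b1 was at 10.6 and 10.9 CPM in KO and 11.01 and 11.5 CPM in WT. In batch 1 both were detected in all 5 libraries, and their sum was 9.71, 12.1 and 12.8 CPM in KO and 14.96 and 18.9 CPM in WT libraries, lower in every KO library. The 10 neutrophil markers summed to 6.09 and 10.3 CPM in KO and 236 and 25.3 CPM in WT libraries of batch 2, and to 1264, 774 and 1125 CPM in KO and 1003 and 338 CPM in WT libraries of batch 1. The 7 B and plasma cell markers were at 9.29 to 53.8 CPM in batch 2 and 108 to 246 CPM in batch 1. The 10 monocyte and macrophage markers summed to 102 and 144 CPM in KO and 150 and 215 CPM in WT libraries of batch 2. In batch 1 that sum was 244, 284 and 264 CPM in KO and 221 and 102 CPM in WT libraries. It was thus lower in every KO library of batch 2 and higher in every KO library of batch 1. The 28 proliferation genes summed to 1213 and 1710 CPM in KO and to 4068 and 2391 CPM in WT libraries of batch 2, and the 10 genes of naive T cells to 7719 and 7158 CPM in KO and 6413 and 5520 CPM in WT libraries. For neither sum did the groups overlap in batch 2. In batch 1 the proliferation sums overlapped, at 993, 1505 and 1005 CPM in KO and 1425 and 743 CPM in WT libraries, and the naive sums were lower in every KO library, at 6468, 5418 and 6742 CPM in KO and 7401 and 7282 CPM in WT. The part of these shifts in the values of the members was not tested. In such bulk samples, fewer cells that make a transcript and less of it per cell cannot be told apart.

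The wider program was read from 8 further lists with 83 genes, of which 82 were in the table. EdgeR called 0 of 77 tested genes in batch 2, 0 of 73 in batch 1 and 0 of 75 over both batches. At an unadjusted p under 0.05, 12 were lower and 4 higher in KO in batch 2, where 4.97% and 2.80% of all genes were, and 1 was lower and 2 higher in batch 1, where the shares were 0.63% and 1.34%. In batch 2, 58 of the 77 had negative log2 fold changes, as did 52.2% of all genes, with a median of -0.22 against -0.02. In batch 1, 41 of 73 were negative, with a median of -0.05 against 0.04.

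Other granzyme genes of the Gzmb cluster were near silent. In batch 2 Gzmc alone of 6 passed the filter, with 0.541 and 0.824 CPM in KO and 0.673 and 1.53 CPM in WT libraries. The 12 genes of granule maturation and packaging had a median of -0.05 in batch 2. Among them Cd63, a granule membrane tetraspanin, was at 0.191 and 0.293 CPM in KO and 2.63 and 1.00 CPM in WT libraries, and its log2 fold change was -2.92 ± 0.78 (edgeR adjusted p = 0.621). Ctsc, the dipeptidyl peptidase that activates granzymes, had 84.9 and 93.9 CPM in KO and 91.9 and 91.8 CPM in WT libraries. Calr, a chaperone also found in granules, had -0.27 ± 0.09, and Lamp2 -0.31 ± 0.11. In batch 1 the smallest p of this list belonged to Ctsh (0.49 ± 0.48), Srgn (-0.32 ± 0.36), which encodes the granule proteoglycan serglycin, and Ctsc (-0.30 ± 0.38). The 11 genes of granule exocytosis had a median of -0.14. Unc13d, which primes granules for fusion, had -0.22 ± 0.11, and Sytl1, a Rab27 partner, -0.55 ± 0.31. Rab44 had -2.59 ± 0.98 in batch 2, at 0.286 and 0.220 CPM in KO and 2.52 and 0.489 CPM in WT libraries, and 1.19 ± 0.46 in batch 1, at 16.8, 9.87 and 16.2 CPM in KO and 6.46 and 4.26 CPM in WT libraries. The highest Rab44 of batch 2 was in WT replicate 3, which also had the highest neutrophil marker sum of that batch, and in batch 1 both were highest in KO replicate 1. The part of these cells in the Rab44 values was not tested. Sytl2 had -0.64 ± 0.37 and Stx11, a fusion protein of granule release, 0.45 ± 0.37 in batch 1. None of these passed adjustment (lowest edgeR adjusted p of the named genes 0.621).

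Protection from granzymes was represented by 7 genes with a median of -0.06 in batch 2. Serpinb6b, an intracellular serpin, had a log2 fold change of -0.59 ± 0.19 and Serpina3g 0.47 ± 0.22 in batch 2, and Serpina3g had 0.94 ± 0.52 in batch 1. Cst3, which encodes cystatin C, had -0.31 ± 0.17 in batch 2, and in batch 1 Cstb, the cystatin B gene, had -0.39 ± 0.46 and Serpinb6a -0.21 ± 0.42. Of 9 death ligands and effector cytokines, 7 were negative in batch 2, with a median of -0.36. Csf2, which encodes GM-CSF, had -2.10 ± 0.71, and the chemokine genes Ccl3 and Ccl4 had -2.16 ± 1.03 and -4.11 ± 1.55. The Ccl3 groups overlapped, at 0.286 and 0.970 CPM in KO and 4.61 and 0.889 CPM in WT libraries, so that value rests on WT replicate 3. The Ccl4 value rests on 5 and 0 counts in KO and 57 and 30 counts in WT libraries. In batch 1 Ccl3 had 0.50 ± 0.72, Ccl4 1.096 ± 1.15 and Ifng -0.45 ± 0.42. Fasl, the ligand of the granule-independent killing pathway, had -0.16 ± 0.21 in batch 2 and 0.09 ± 0.47 in batch 1. Ifng was at 2.31 and 10.03 CPM in KO and 16.4 and 18.2 CPM in WT libraries of batch 2, with -1.48 ± 0.73 (edgeR adjusted p = 0.707).

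Transcription factors that favour and oppose cytotoxic differentiation had medians of opposite sign in batch 2. Of 12 activating factors 11 were negative, with a median of -0.39. Zeb2, which drives terminal effector differentiation, was at 7.59 and 12.5 CPM in KO and 22.3 and 26.2 CPM in WT libraries, which gave -1.26 ± 0.28 (edgeR unadjusted p = 0.00494, adjusted p = 0.618). Bhlhe40 had -1.21 ± 0.43, Id2 -0.68 ± 0.27 and Tbx21 -0.94 ± 0.54, while Runx3 had -0.10 ± 0.19. Of 8 opposing factors 7 were positive, with a median of 0.28. Lef1, a factor of naive T cells, was at 1067 and 1044 CPM in KO and 807 and 692 CPM in WT libraries, with 0.49 ± 0.13, and Bach2 had 0.49 ± 0.12 and Foxo1 0.26 ± 0.09. Zbtb7b, which encodes ThPOK, the repressor of the CD8 program, had -0.03 ± 0.13. In batch 1 the picture was not the same, with a median of -0.01 and 6 of 12 negative for the activating factors and -0.27 with 8 of 8 negative for the opposing factors. There Zeb2 was at 29.4, 47.2 and 30.6 CPM in KO and 25.6 and 19.7 CPM in WT libraries, with a log2 fold change of 0.51 ± 0.37. Tbx21 had 0.52 ± 0.37, Stat4 -0.33 ± 0.37, Tcf7 -0.57 ± 0.35, Foxo1 -0.50 ± 0.36 and Lef1 -0.38 ± 0.36 there. The interaction of Zeb2 was -1.89 ± 0.43 and did not pass (edgeR adjusted p = 0.451).

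The 17 surface molecules linked to cytotoxic CD4 T cells had a median of -0.51 in batch 2, with 15 negative, and of 0.25 in batch 1, where 7 of 16 were negative. S1pr5, a receptor for sphingosine 1-phosphate on terminal effector and NK cells, had 0 counts in both KO libraries of batch 2 and 20 and 30 counts in WT libraries. Taken against 3 counts per library it was at least 8.67-fold lower in KO (edgeR adjusted p = 0.625), and with S1pr5 at this bound the median of the list was also -0.51. The fractalkine receptor gene Cx3cr1 was at 1.45 and 0.842 CPM in KO and 2.59 and 4.00 CPM in WT libraries, with -1.51 ± 0.49. Klrk1, which encodes NKG2D, had -0.91 ± 0.35, while Klrg1, a marker of terminal effectors, had 0.29 ± 0.41. In batch 1 Klrd1 (CD94) was at 10.2, 3.67 and 8.48 CPM in KO and 14.7 and 17.3 CPM in WT libraries, with -1.25 ± 0.44. There Slamf7 had 0.85 ± 0.40, and Cxcr3 had 0.77 ± 0.42. Zeb2, Cx3cr1 and S1pr5 were each lower in both KO libraries of batch 2 than in both WT libraries, as Gzma was. In that batch 20.5% of all genes were so arranged. These 3 were named because they were among the smallest p of their lists in the same libraries. That choice favours such an arrangement, so it says nothing of a link with Gzma. In batch 1 the parallel did not hold: S1pr5 was at 2.79, 4.02 and 8.29 CPM in KO and 2.12 and 2.64 CPM in WT libraries, Cx3cr1 at 5.59, 12.4 and 8.48 CPM in KO and 6.02 and 1.83 CPM in WT, and the log2 fold changes of Zeb2, S1pr5 and Cx3cr1 were 0.51, 0.86 and 0.90, against -0.97 for Gzma.

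**Figure D4:**
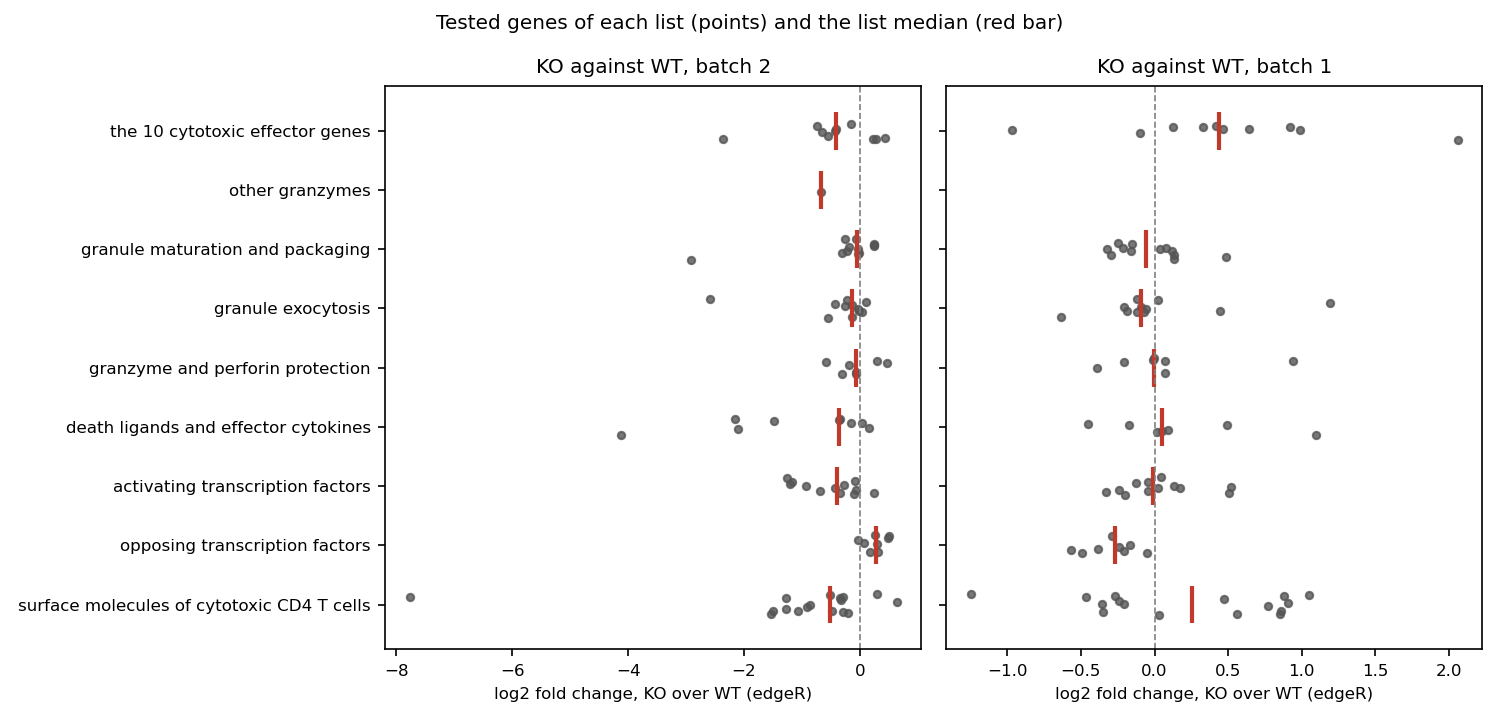
Log2 fold change of KO over WT for the tested genes of each list (points) with the list median (red bars), in batch 2 on the left and batch 1 on the right, each panel with its own axis range. In batch 2 the 10 members have a median of -0.41 and the opposing transcription factors 0.28, and in batch 1 these medians are 0.44 and -0.27.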

How the data were processed

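Per the file headers, the table that the authors deposited pairs Entrez identifiers and symbols with estimated counts per gene. The submitters' processing notes list Salmon 1.2.0, R 4.0.3 and GRCm39 but give no roles. Annotation release and strand setting: not given in the sources used here. Estimation can divide reads between similar genes, and how far this affects granzymes of tandem clusters was not checked. Values were rounded to whole numbers, and CPM is counts over the library total.

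Comparisons used edgeR 4.0.16 in R 4.3.3 (quasi-likelihood, robust, TMM, default filter by genotype with minimum count 10 and total 15) on all genes, calling genes at a Benjamini-Hochberg adjusted p under 0.05, within each batch, over both with batch as a term, and for the interaction. SEs derive from the F statistic and intervals are 95%. Alternatives were DESeq2 1.42.0, upper-quartile scaling, 2 other filters, limma-voom (limma 3.58.1), no batch term, a replicate block and leaving out libraries. On simulated data the batch 2 test recovered 10.4% of genes changed 2-fold and 66.7% of those changed 4-fold, and the batch 1 test 4.48% and 54.5%. The changed genes were drawn only from those above a minimum mean count. Gzmk and Gzmm did not reach that minimum in batch 1, so these shares do not cover them there. The members and lists were chosen with earlier results of these data known. Named genes of a list are its 3 smallest p in each batch, and others (Ctsc, Fasl, Runx3, Zbtb7b, Klrg1 and, in batch 2, Tbx21 and Ifng) were chosen after their values were seen.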

Additional observations from a re-analysis of the deposited data

Results flagged for a closer look

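The 10 genes in KO and in WT libraries of both batches gave 20 sets of values, and in 1 of them the highest value was distant from the rest. Chance alone marks about 1 in 20 sets. Gzmm was at 3.55 CPM in KO replicate 3, while the other 4 KO libraries had 2.07 to 2.40 CPM, and it rested on 18 counts, under the 21 counts of the 95th percentile of the receptor genes there.

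Gzmm also went in opposite directions in the batches, with every KO library below every WT library in batch 2 and above in batch 1. Of all tested genes, 20.5% were arranged like Gzmm in batch 2 and 10.9% in batch 1. The difference between the batches was -0.90 ± 0.91 on the log2 scale and did not pass (edgeR adjusted p = 0.924).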

How the results depend on the processing

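edgeR called 0 members in batch 2, and 1 (Gzma) with DESeq2 and with no filter. Leaving out single libraries gave 0 to 1 there and 0 in the other comparisons. Gzma kept its sign in every fit. Signs of members that were not called turned as follows in the pooled fit: Gzmb to 0.0195 with DESeq2 and 0.0215 with upper-quartile scaling, Gzmm to -0.0211 with DESeq2, -0.10 with no filter, -0.0759 with the stricter filter, -0.23 with limma-voom and -0.0600 without the batch term, Nkg7 to -0.0384, -0.0290, -0.42 and -0.26 with the last 4 of these, and Ccl5 to -0.0118 with limma-voom. In batch 1 Ctsw turned to -0.0203 with DESeq2. Without WT replicate 3 and KO replicate 3 together, chosen after seeing the data, Gzmm was -0.18, Nkg7 -0.18 and Prf1 0.26. Leaving out single libraries, the pooled values ran from -0.39 to 0.27 for Gzmb, -0.26 to 0.20 for Gzmm, -0.0312 to 0.19 for Prf1, -0.34 to 0.50 for Nkg7, -0.35 to 0.14 for Ctsw and -0.25 to 0.59 for Ccl5. In batch 1 they ran from -0.0621 to 1.11 for Gzmb and -0.18 to 0.46 for Ctsw, in batch 2 from -1.68 to 0.57 for Gzmk, -0.0577 to 0.69 for Prf1 and -1.69 to 0.0864 for Nkg7, and the interaction of Prf1 from -0.0435 to 0.75.

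With the replicate number as a block, the pooled value was -1.30 for Gzma, -0.0586 for Gzmm and -0.24 for Nkg7, and 0 members were called. Numbers do not pair the samples: deviations of same-numbered libraries correlated at 0.357, -0.387, -0.0899 and -0.0602, and number 3 spans both batches. Batch 2 shares 1 number, so it had no block.

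Calls over all genes moved with the setting. In batch 2 edgeR called 0, DESeq2 329 and the fit with no filter 34, with 268 and 879 without WT replicates 3 and 4. In batch 1 the count was 31, with 6 under upper-quartile scaling, 12 with limma-voom, 68 with no filter, 67 with the block, and 61 and 118 without WT replicates 1 and 2. Over both batches it was 1, with 16 in DESeq2, 2 with no filter, 0 without the batch term and 0 to 3 with a library left out. The interaction gave 1, with 165 in DESeq2, 2 with no filter, 0 with limma-voom and 1 to 238 with a library left out. Depth limits batch 1, where Gzmk had 2 to 45 counts and Gzmm 8 to 22.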
